A study of Homo sapiens with 18 samples.

Results

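Fatty acid synthesis was followed through 10 genes in A549 cells exposed to Ludox silica nanoparticles (NPs), namely ACSS2, ACLY, ACACA, FASN, SCD, ELOVL6, FADS1, FADS2, ACSL3 and LPIN1. They were found on the array by the gene name in the scanner files, which gave 18 probes for the 10 genes among 41000 distinct probes, 30484 gene names in all. ACSS2 was brought into the set because it rose after AS30 NPs at 22 h. The values of that contrast, and the genes past the threshold in it, are therefore given below as a description. They are not read as a test of any gene. A549 is an established line of human lung adenocarcinoma epithelial cells. The cells attached for 24 h, were exposed for 2 h to NPs without serum, and then recovered in complete medium with 10% serum. The 3 treated groups were SM30 NPs of 9 nm with 3 h of recovery, AS30 NPs of 18 nm with 3 h of recovery, and AS30 NPs with 22 h of recovery, all at 0.02 mg/mL. Each had a control group of its own, which went through the same steps without NPs. Every group held 3 arrays, lettered A to C, and all 18 carried RNA of the same cell line.

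Fatty acids are built from acetyl-CoA in the cytosol. ACLY cleaves citrate to acetyl-CoA and ACSS2 makes acetyl-CoA from free acetate. ACACA carboxylates acetyl-CoA to malonyl-CoA, and FASN condenses these units into palmitate. ELOVL6 lengthens the saturated and monounsaturated chain, SCD puts the first double bond into it, and FADS1 and FADS2 desaturate polyunsaturated chains. ACSL3 joins free fatty acids to CoA, and LPIN1 removes phosphate from phosphatidic acid to give the diacylglycerol of stored fat and membrane lipids. Many of these genes are known targets of the SREBP transcription factors, which respond to the sterol and lipid content of the cell.

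The 3 replicate arrays of a group correlated at 0.964 to 0.996 over the probes, and no spot was saturated. The share of probes well above background was 56.9% to 67.0% after AS30 at 22 h and 51.9% to 58.4% in its controls. It was 62.5% to 67.1% after AS30 at 3 h against 52.4% to 61.9% in its controls, and 69.0% to 72.4% after SM30 against 65.5% to 69.9%. The part of these differences in the results was not tested. All 6 epithelial markers, KRT8, KRT18, KRT19, EPCAM, CDH1 and KRT7, were well above background on 18 arrays. The endothelial marker PECAM1 and the fibroblast collagen COL3A1 were well above background on 0 arrays and the leukocyte marker PTPRC on 5, while CD3E, CD14, CD68, COL1A1 and ADIPOQ were above it on 18. Of the other endothelial markers, CDH5 was above it on 1 array and VWF on 11. The fibroblast markers COL1A2 and DCN were above it on 7 and 1, and ALB, APOA1 and PLIN1 on 2, 4 and 1. The arrays were spread over 5 slides, and the 3 AS30 arrays at 3 h shared a slide that held none of their controls. Fewer cells and less RNA per cell cannot be told apart in such bulk samples.

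All 18 probes passed the filter on missing values, and each was positive and significant on 18 arrays. For a gene with several probes the brightest stands for it, and the other probes are described apart. The 2 ACSS2 probes lie at chr20:32979004-32979062 and chr20:32934388-32934447, the FADS1 probes at chr11:61326148-61326207 and chr11:61323702-61323761, and the FADS2 probes at chr11:61391330-61391389 and chr11:61381512-61381571, on build hg18 as the scanner files give it. The brightest LPIN1 probe lies at chr2:11884558-11884617 and the ELOVL6 probe at chr4:111190620-111190679 on the same build. The files name the transcript of each probe and not whether it lies in a coding part.

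RefSeq promoter windows on GRCh38.p14, which run from 250 bases before a start site to 50 bases after it, matched 9 of the 10 genes with 16 windows, since some genes have several starts. FASN had no window and was not searched. Each window was searched on both strands for the sterol regulatory element TCACNCCAC, the E-box CACGTG, the CCAAT box CCAAT and the GC box GGGCGG. The sterol element matched 0 of the 16 windows and 1.13% of 35116 windows of the table, and the E-box matched 0 of the 16 and 7.26% of all. These letters are absent from these windows, which says nothing of other sites of the same factors. The CCAAT box was found in windows of 6 of the 9 genes (8 of 16 windows, against 34.6% of all windows) and the GC box in windows of all 9 matched genes (13 of 16, against 45% of all).

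The bases before the start are shown for the 5 genes that passed the threshold after AS30 at 22 h, the contrast that chose ACSS2, to show what precedes their starts, with both starts of ACSS2, for FADS2 the start nearest to FADS1, and for LPIN1 the start listed first of 3. Capitals mark GC boxes and CCAAT boxes, read on either strand, so that CCGCCC and ATTGG are the same boxes in reverse. The windows are chr20:34874739-34874988 and chr20:34876362-34876611 on the plus strand for ACSS2, chr4:110198616-110198865 on the minus strand for ELOVL6, chr11:61817004-61817253 on the minus strand for FADS1, chr11:61816154-61816403 on the plus strand for FADS2, and chr2:11746382-11746631 on the plus strand for LPIN1.
ACSS2 upstream start: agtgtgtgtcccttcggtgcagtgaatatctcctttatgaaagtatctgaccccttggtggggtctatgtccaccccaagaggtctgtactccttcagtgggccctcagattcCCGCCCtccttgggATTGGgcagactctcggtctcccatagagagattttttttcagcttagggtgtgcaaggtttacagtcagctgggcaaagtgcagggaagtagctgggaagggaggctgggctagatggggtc
ACSS2 downstream start: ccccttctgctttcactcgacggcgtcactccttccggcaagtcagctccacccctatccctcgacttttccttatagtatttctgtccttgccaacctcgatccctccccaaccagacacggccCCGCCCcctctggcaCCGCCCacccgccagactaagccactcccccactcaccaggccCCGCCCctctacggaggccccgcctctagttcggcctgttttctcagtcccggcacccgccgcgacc
ELOVL6: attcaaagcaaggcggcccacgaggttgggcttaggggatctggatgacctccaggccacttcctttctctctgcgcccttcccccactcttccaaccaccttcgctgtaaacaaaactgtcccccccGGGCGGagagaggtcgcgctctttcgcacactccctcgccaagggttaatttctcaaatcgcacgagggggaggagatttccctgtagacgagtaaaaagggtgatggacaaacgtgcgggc
FADS1: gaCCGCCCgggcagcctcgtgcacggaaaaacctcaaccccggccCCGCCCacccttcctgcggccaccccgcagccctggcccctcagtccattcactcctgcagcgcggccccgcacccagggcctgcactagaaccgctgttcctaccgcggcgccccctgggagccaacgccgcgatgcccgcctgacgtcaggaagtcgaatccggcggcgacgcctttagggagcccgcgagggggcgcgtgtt
FADS2: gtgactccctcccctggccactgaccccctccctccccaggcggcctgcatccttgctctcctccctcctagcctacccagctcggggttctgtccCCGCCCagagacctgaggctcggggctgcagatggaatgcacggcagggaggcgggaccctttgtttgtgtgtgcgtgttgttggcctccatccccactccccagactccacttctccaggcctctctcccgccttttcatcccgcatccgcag
LPIN1: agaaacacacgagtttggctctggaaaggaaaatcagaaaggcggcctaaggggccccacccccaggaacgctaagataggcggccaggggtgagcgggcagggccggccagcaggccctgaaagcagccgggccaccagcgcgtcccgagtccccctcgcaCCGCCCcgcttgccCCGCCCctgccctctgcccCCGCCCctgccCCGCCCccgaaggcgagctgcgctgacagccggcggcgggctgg

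The upstream ACSS2 start carries a GC box and a CCAAT box close to each other, and the downstream start carries GC boxes alone. FADS1 and FADS2 are neighbours on chromosome 11, and the listed FADS1 start lies 599 or 800 bases from the listed FADS2 starts, on the opposite strand. The FADS1 start is at 61817003 on the minus strand, and the FADS2 starts are at 61816203 and 61816404 on the plus strand. The FADS2 starts thus lie downstream of the FADS1 start and not before it.

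After 22 h of recovery from AS30, all 10 genes had a mean log2 ratio of treated over same-letter control above 0, from 0.20 for ACSL3 to 2.93 for ACSS2. Over all probes tested 49.5% had a change above 0. The median over the 10 genes was 0.79 and the median over all probes tested was 0.00. The 5 genes ACSS2, ELOVL6, FADS1, FADS2 and LPIN1 passed an adjusted p of 0.05 in limma, all of them higher, where 3.58% of 28155 probes passed and 2.54% passed as higher. In 6 genes the 3 treated arrays all lay above the 3 controls, which held for 12.8% of the 24743 probes measured on all these arrays. Since ACSS2 was chosen on this contrast, these counts are given as a description, and that ACSS2 passed is no evidence of its rise.

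ACSS2, which makes acetyl-CoA from acetate, was at a normalized log2 signal of 13.34, 10.80 and 12.93 in AS30 replicates A, B and C at 22 h, and at 9.34, 9.35 and 9.60 in their controls. All 3 treated arrays lay above all controls, and replicate B lay far below the other 2. The ratios were 16-fold, 2.72-fold and 10.1-fold, with a mean of 7.60-fold (log2 2.93, SE 0.38). This SE uses a spread shared with the 3 h ratios of ACSS2, which lay closer together. ACLY, the other source of cytosolic acetyl-CoA, was at 13.41, 12.68 and 13.39 against 12.69, 12.65 and 12.86. Replicate B of ACLY lay within the range of its controls. The mean ACLY change was 0.42 on the log2 scale (SE 0.14).

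Of the enzymes that build and lengthen the chain, the elongase had the widest distance between treated and control arrays. ACACA, which makes malonyl-CoA, was at 7.47, 7.72 and 8.09 after AS30 against 7.27, 7.29 and 7.83, and the groups overlapped (mean log2 change 0.30, SE 0.15). FASN, which builds palmitate, was at 10.68, 9.45 and 10.68 against 9.18, 9.27 and 9.82. FASN replicates A and C lay above all controls and replicate B did not, with a mean change of 0.85 (SE 0.24). ELOVL6, the elongase of the palmitate product, was at 11.48, 9.99 and 11.12 against 9.15, 9.55 and 9.38, all treated above all controls. Its ratios were 5.02-fold, 1.36-fold and 3.34-fold, a mean of 2.84-fold (log2 1.50, SE 0.30).

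By their brightest probes, the 3 desaturases were higher on every treated array than on every control. SCD was at 13.37, 12.93 and 13.50 against 12.52, 12.46 and 12.73, a mean log2 change of 0.70 (SE 0.25). FADS1 was at 15.54, 14.66 and 15.53 against 14.41, 14.11 and 14.33 (mean 0.96, SE 0.15). FADS2 was at 15.43, 14.85 and 15.51 against 14.81, 14.31 and 14.49 (mean 0.72, SE 0.13). FADS1 and FADS2 changed by 1.94-fold and 1.65-fold, with replicate B again the lowest of the treated arrays in both.

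Downstream of synthesis, the groups overlapped for ACSL3 and not for LPIN1. ACSL3, which activates free fatty acids, was at 10.84, 10.63 and 11.15 against 10.78, 10.70 and 10.56 (mean log2 change 0.20, SE 0.18). LPIN1, the phosphatidic acid phosphatase, was at 12.11, 11.16 and 12.67 against 10.32, 10.23 and 10.86. The mean LPIN1 change was 2.84-fold (log2 1.51, SE 0.31).

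The plot of signals by array shows the 10 genes in their 6 groups.

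**Figure D1:**
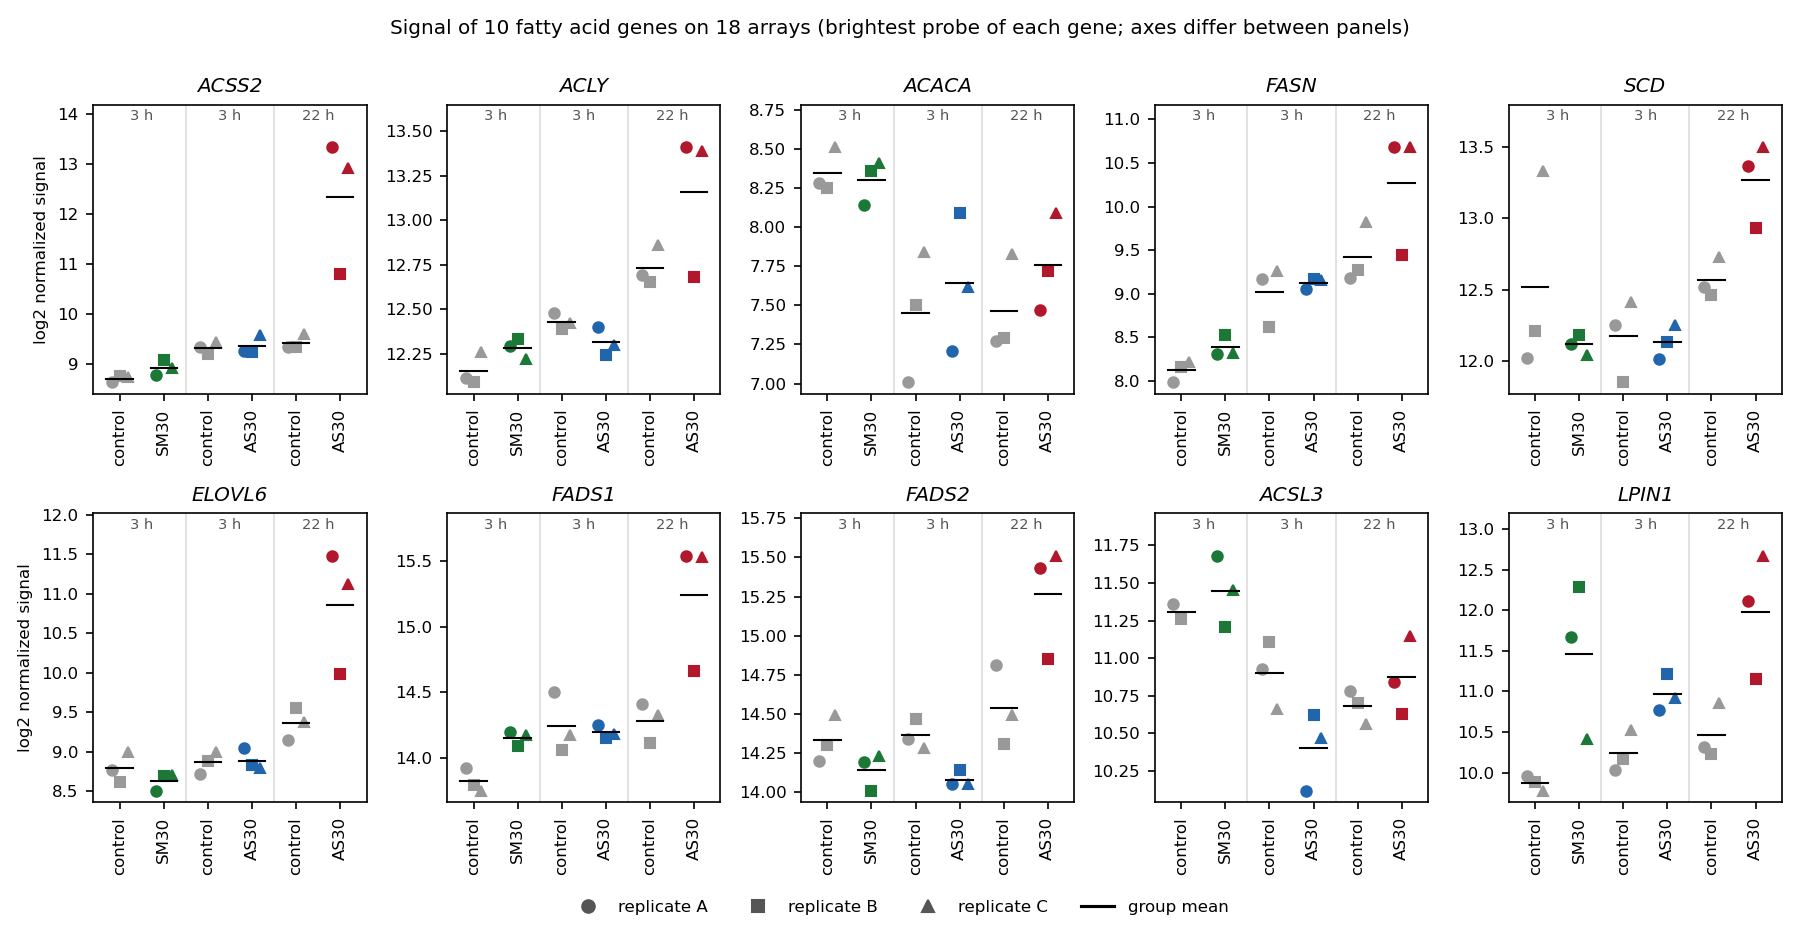
Normalized log2 signal of the brightest probe of each gene (vertical axis, own scale in each panel) on 18 arrays, in 6 groups ordered as control and treated for SM30 at 3 h, AS30 at 3 h and AS30 at 22 h; symbols give replicates A to C and bars the group means. For ACSS2 the AS30 arrays at 22 h sit at 10.80 to 13.34 and the other 15 arrays at 8.65 to 9.60.

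Replicate pair B was the lowest of the 3 pairs at 22 h in 9 of the 10 genes, and the median over the 10 genes was 0.99 in pair A, 0.46 in pair B and 0.94 in pair C. The medians over all probes were 0.01, 0.00 and -0.01 in these pairs. Without pair B, 7 genes passed, FASN and ACLY among them, where 4.29% of all probes passed. Without pair A or pair C 0 of the 10 passed, where 0.00716% and 0.684% of all probes did. On the slide that held the 3 treated arrays and control C, the treated mean was above the control in 9 of 10 genes, by 2.76 for ACSS2, 1.48 for ELOVL6, 1.12 for LPIN1, 0.91 for FADS1 and 0.77 for FADS2 on the log2 scale. ACACA was the exception at -0.07. With slide as a fixed block 0 genes and 1.15% of all probes passed. That fit rests on the same 3 treated arrays and control C, so its ACSS2 change of 2.76 is the same comparison and not a second one. By the brightest probes, the AS30 change at 22 h exceeded that at 3 h in 10 of 10 genes, with a median difference of 0.76. Of these differences 0 of the 10 passed the threshold, against 0.0285% of all probes. At an unadjusted p of 0.05, 6 of the 10 and 16.9% of all probes passed, and nothing is read from this count, since the difference holds the 22 h values that chose ACSS2.

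**Figure D2:**
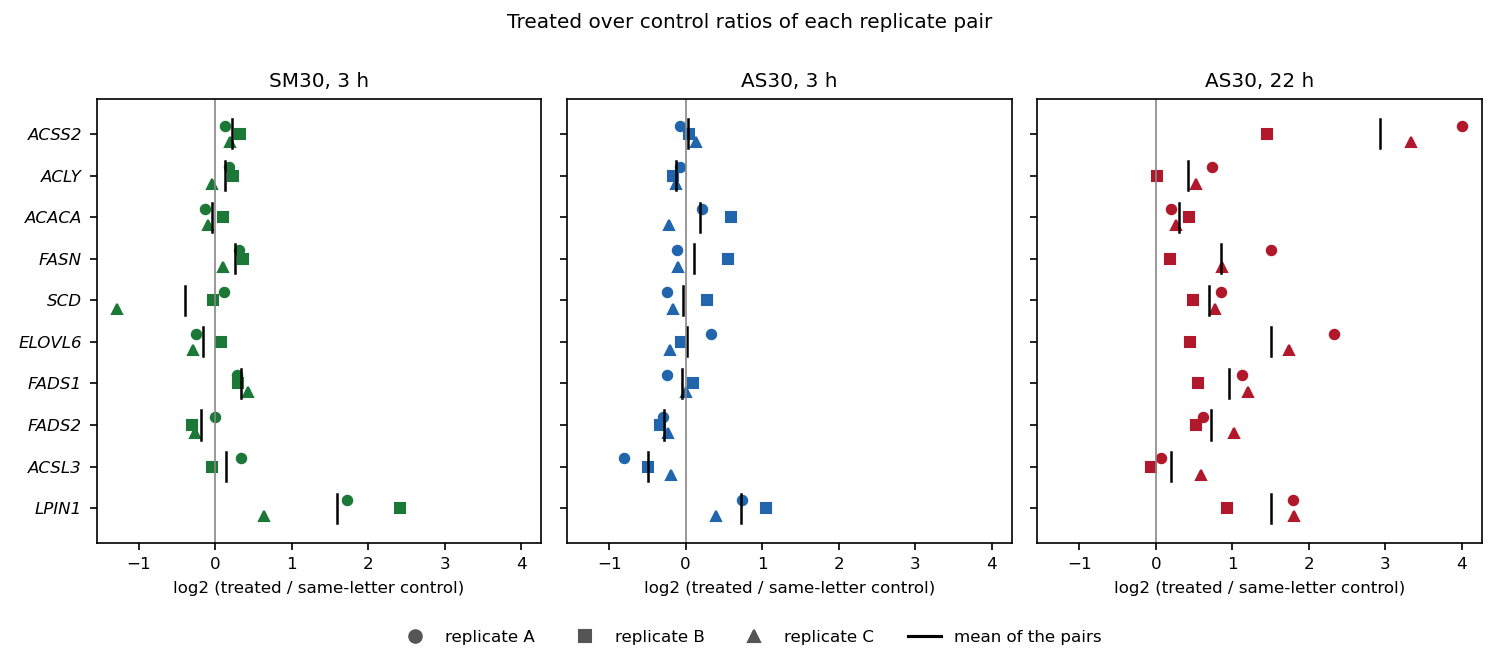
Log2 ratio of each treated array over its same-letter control (horizontal axis) for 10 genes in 3 treated groups; symbols give the pairs A to C and bars their mean. LPIN1 lies to the right of 0 in all 9 pairs, and ACSS2 ratios range from -0.07 to 0.32 at 3 h and are 1.45 or more at 22 h.

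At 3 h after SM30, LPIN1 rose and it was the 1 gene of the 10 to pass the threshold, where 7.49% of all probes passed. LPIN1 was at 11.67, 12.29 and 10.42 in SM30 replicates A, B and C against 9.96, 9.89 and 9.78 in the controls. All treated arrays lay above all controls, and replicate C was much closer to them than the other 2. The rise was 3.01-fold (log2 1.59, SE 0.31, 95% interval 0.87 to 2.31, limma adjusted p = 0.0227). Without pair A the change was 1.52 and the adjusted p 0.101, and without pair B 1.18 and 0.133. On the slide that held SM30 replicate A and the 3 controls the difference was 1.79. With slide as a fixed block the change was 1.80 with an adjusted p of 0.208, and it rests on these same 4 arrays.

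The other 9 genes had changes of -0.40 to 0.33 after SM30, and the median over the 10 genes was 0.13 against -0.05 over all probes. ACSS2 was at 8.78, 9.09 and 8.92 against 8.65, 8.76 and 8.74, which put every treated array just above the controls, with a change of 0.21 (95% interval -0.66 to 1.09, adjusted p = 0.772). The width of this interval comes from a spread shared with the AS30 ratios at 22 h. FADS1 was at 14.20, 14.09 and 14.17 against 13.92, 13.79 and 13.75, again without overlap, and its change of 0.33 (95% interval 0.00 to 0.67) had an adjusted p of 0.198. FASN, the palmitate synthase, was the third of these genes without overlap, with a change of 0.26 (adjusted p = 0.534). LPIN1 included, 4 of the 10 genes lay higher in every SM30 array than in every control, against 19.2% of all probes, and 0 lay lower in every one, against 23.8%. SCD, the delta-9 desaturase, was at 12.12, 12.18 and 12.04 against 12.02, 12.21 and 13.33. Control C of SCD stood apart from the other 5 arrays, and the change was -0.40 (adjusted p = 0.359) with pair C and 0.04 without it.

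At 3 h after AS30, 0 of the 10 genes passed the threshold in limma, where 2.52% of all probes passed, and their median change was -0.01 against 0.01 over all probes. At an unadjusted p of 0.05, 2 genes passed, LPIN1 and ACSL3, against 24.4% of all probes. LPIN1 was at 10.77, 11.21 and 10.92 against 10.03, 10.17 and 10.53, all treated above all controls, a change of 0.73 (SE 0.31, adjusted p = 0.200). ACSL3, the acyl-CoA synthetase, was at 10.12, 10.62 and 10.47 against 10.93, 11.11 and 10.66. Every AS30 array of ACSL3 lay below every control, and the change was -0.49 (SE 0.18, adjusted p = 0.154). FADS2, the delta-6 desaturase, was also lower on every treated array, at 14.05, 14.14 and 14.05 against 14.34, 14.47 and 14.28 (change -0.29, adjusted p = 0.207). ACSS2 was at 9.27, 9.24 and 9.58 against 9.34, 9.20 and 9.45, and its groups overlapped throughout (change 0.03, 95% interval -0.84 to 0.91, adjusted p = 0.969). Here too the interval uses the spread shared with the 22 h ratios. Of the 10 genes, 2 thus lay lower on every treated array, against 10.6% of all probes, and 1 lay higher, against 13.2%. The AS30 arrays and their controls sat on different slides, so treatment and slide cannot be told apart here. With slide as a random block ACSL3 passed the threshold in limma (change -0.50, adjusted p = 0.0467), where 13.8% of all probes passed in place of 2.52%. With slide as a fixed block 0 of the 10 genes and 0.43% of all probes passed. In that fit the FADS2 change was 0.21, so its sign was not kept.

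The 2 particles differ in diameter and were compared at the same recovery time, each over its own controls. None of the differences between the SM30 and AS30 responses passed the threshold in limma, and 0 passed at an unadjusted p of 0.05, where 0.0140% and 14.6% of all probes did. For LPIN1 the SM30 response was larger by 0.86 on the log2 scale, with a 95% interval of -0.16 to 1.87. For ACSL3 it was larger by 0.63 (interval -0.03 to 1.29), where pair C of SM30 is missing because its control spot was an outlier. ACSL3 was at 11.68, 11.21 and 11.45 after SM30 against 11.36 and 11.26 in controls A and B, and these groups overlapped. For ACSS2 the interval of the difference ran from -1.06 to 1.42, so that a difference of 2-fold in either direction lay inside it. Its width comes from a spread that the fit takes from all 9 ratios, the widely spread 22 h ratios included. The ACSS2 log2 ratios at 3 h were 0.13, 0.32 and 0.19 after SM30 and -0.07, 0.04 and 0.13 after AS30. The intervals of these genes do not show that the particles acted alike on them.

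The second probes moved with the brightest ones at 22 h and less so at 3 h. All 8 other probes of the 7 genes with several had a change above 0 after AS30 at 22 h, and their changes ran from 0.15 to 1.77. The second ACSS2 probe was at 10.16, 9.06 and 10.01 against 7.75, 8.07 and 8.12 in the controls, a mean of 3.41-fold. It too placed replicate B lowest, and it gave a smaller change than the brightest probe by 1.16 on the log2 scale. The second FADS1 and FADS2 probes changed by 1.07 and 0.73, close to the 0.96 and 0.72 of the brightest probes. The other SCD probes changed by 1.29 and 1.26, and their treated and control arrays overlapped, unlike those of the brightest. At 3 h, 5 of the 8 other probes shared the sign of the brightest probe after SM30 and 4 of 8 after AS30. The second FADS1 probe changed by -0.24 after SM30, where the brightest changed by 0.33, and the other SCD probes by 0.34 and 0.22, where the brightest changed by -0.40.

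The second LPIN1 probe, which is dimmer and was well above background on 15 arrays, was at 7.68 and 7.94 in SM30 replicates B and C against 5.88, 5.42 and 5.28 in the controls, with replicate A left out as an outlier spot. Its change of 2.46 (SE 0.76) had an adjusted p of 0.0971. After AS30 at 3 h it was at 7.14, 8.04 and 7.88 against 4.78, 5.20 and 8.75, so control C stood with the treated arrays. Its AS30 change was 1.44 at 3 h and 0.92 at 22 h (SE 0.62 at each). The difference of -0.52 had the opposite sign to the 0.78 of the brightest probe. With the mean over the probes of a gene, 4 of the 10 genes passed at 22 h, LPIN1 not among them, where 4.4% of genes passed. The second ACSL3 probe changed by -0.61 after AS30 at 3 h (adjusted p = 0.156), in the direction of the brightest probe.

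**Figure D3:**
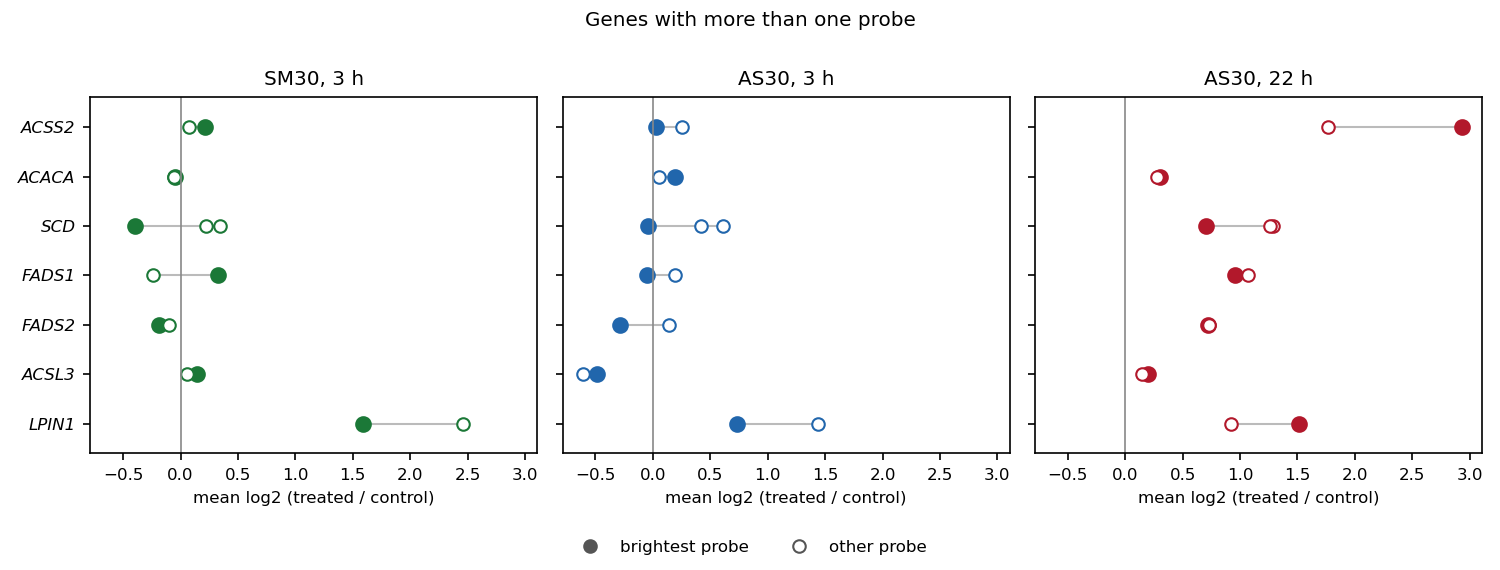
Mean log2 ratio (horizontal axis) of every probe of the 7 genes with several probes, in 3 treated groups; filled points are the brightest probe and open points the others. At 22 h all probes lie to the right of 0, and after SM30 the SCD and FADS1 probes lie on both sides of 0.

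The untreated groups show how far the genes moved without NPs. Between the controls at 22 h and the AS30 controls at 3 h, 0 of the 10 genes passed the threshold in limma and 0 at an unadjusted p of 0.05, against 1.30% and 14.9% of all probes. Of the 10 genes 9 were higher at 22 h, with a median difference of 0.20 against 0.02 over all probes, and ELOVL6 had the largest difference at 0.49 (SE 0.27, adjusted p = 0.418). ELOVL6 was at 9.15, 9.55 and 9.38 at 22 h and at 8.72, 8.89 and 9.00 at 3 h, without overlap. ACLY and SCD also did not overlap, so 3 of 10 genes lay wholly higher at 22 h, against 7.95% of all probes. This comparison shares its 22 h controls with the AS30 contrast at 22 h. ACSS2 differed by 0.10 (95% interval -0.83 to 1.02), whose width comes from a spread that the fit takes from all 6 groups, the AS30 arrays at 22 h included. On the 9 untreated arrays alone the SE for ACSS2 was 0.13 in place of 0.43.

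Between the untreated SM30 and AS30 sets at 3 h, 26.8% of all probes passed the threshold, and 2 of the 10 genes did. ACACA was higher in the SM30 set, at 8.28, 8.25 and 8.51 against 7.01, 7.50 and 7.84 (difference 0.90, SE 0.25, adjusted p = 0.0162). FASN was lower there, at 7.99, 8.16 and 8.22 against 9.17, 8.62 and 9.26 (difference -0.89, SE 0.28, adjusted p = 0.0297). These enzymes of successive steps thus differed between untreated sets by more than either changed after NPs at 3 h. ACSS2 lay lower on every array of the SM30 set by its brightest probe (difference -0.61, adjusted p = 0.315) and higher by its second probe, at 9.11, 9.30 and 9.47 against 8.12, 8.31 and 8.27 (difference 1.06, adjusted p = 0.00479), so the probes disagree in direction. FASN, ACSS2, ACLY, FADS1 and LPIN1 lay lower on every array of the SM30 set by their brightest probes. So 5 of 10 lay lower, against 18.9% of the probes measured on all these arrays, and ACACA lay higher, against 26.2%. ACSL3 was not counted, since its control C spot in the SM30 set was left out. Its controls A and B there, at 11.36 and 11.26, lay above the AS30 controls at 10.93, 11.11 and 10.66. The second FADS2 probe differed by -0.69 (adjusted p = 0.0111) and the brightest by -0.03. The second ACACA probe differed by 0.59, in the direction of the brightest, but did not pass in limma (adjusted p = 0.0956), and its groups overlapped. On the 9 untreated arrays alone ACSS2 passed too, by its brightest probe (adjusted p = 0.0214), where 15.9% of all probes passed. Without pair B of AS30 at 22 h, whose arrays enter only through the spread, ACACA, FASN, ACSS2, ACLY and FADS1 passed. Without that pair 27.3% of all probes passed. The sets sat on different slides, and set and slide cannot be told apart here.

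**Figure D4:**
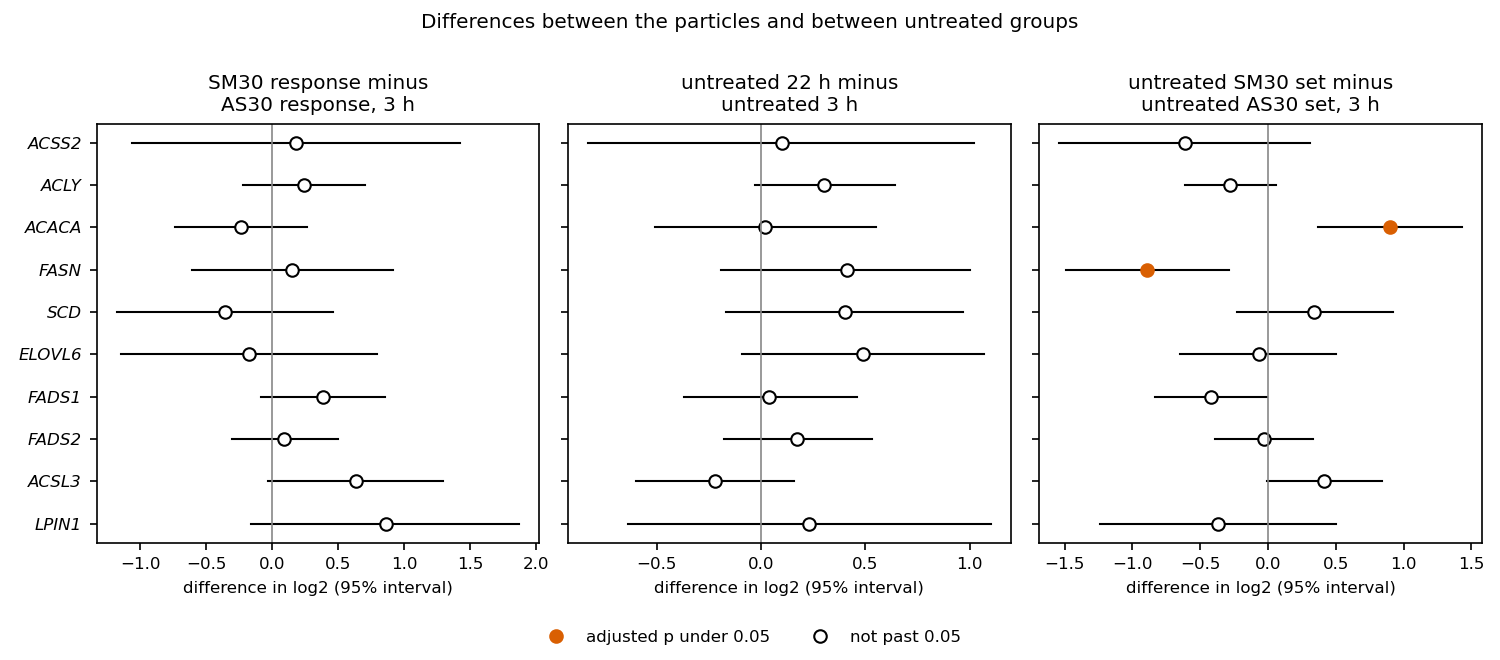
Difference in log2 (horizontal axis, point) with its 95% interval (line) for 10 genes: the SM30 response minus the AS30 response at 3 h, untreated cells at 22 h minus 3 h, and the untreated SM30 set minus the AS30 set at 3 h. Filled points passed an adjusted p of 0.05, which ACACA at 0.90 and FASN at -0.89 did in the last panel.

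The order of the 6 group means placed AS30 at 22 h highest in 8 of the 10 genes. For ACSS2 it was followed by its 22 h controls at a mean of 9.43 ± 0.15 (SD, n = 3), AS30 at 3 h at 9.36 ± 0.19 and the AS30 controls at 9.33 ± 0.13, whose ranges overlapped, and then by SM30 at 8.93 ± 0.16 and the SM30 controls at 8.72 ± 0.06. The AS30 group at 22 h was at 12.36 ± 1.36, the widest spread of the ACSS2 groups. LPIN1 had a different order, with AS30 at 22 h at 11.98 ± 0.76, SM30 at 11.46 ± 0.95 and AS30 at 3 h at 10.97 ± 0.22 above the 3 control groups, although neighbouring groups in that order overlapped down to the AS30 controls. ACACA and ACSL3 were the genes not led by AS30 at 22 h. ACACA was highest in the SM30 controls, at 8.35 ± 0.14, and ACSL3 after SM30, at 11.45 ± 0.24.

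Over the 18 arrays, which share groups and slides, the signal of ELOVL6 followed that of ACSS2 most closely among the other 9 genes, with Pearson's r of 0.97. FADS1 was at 0.96, ACLY at 0.92, FASN at 0.89, FADS2 at 0.88, SCD at 0.74 and LPIN1 at 0.67. ACSL3 at -0.14 and ACACA at -0.20 did not follow it. Among all 23030 probes measured on 18 arrays, the genes outside the set most like ACSS2 were MVD (0.984) and LSS (0.978), enzymes of cholesterol synthesis, ALDOC (0.978), a glycolytic aldolase, DHCR7 (0.977), the last reductase of cholesterol synthesis, and MGC23284 (0.976). These correlations are descriptions, and the AS30 arrays at 22 h carry most of the range of ACSS2.

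Other genes of lipid metabolism were counted by list. Of 30 other genes of fatty acid synthesis, elongation and activation 25 had a kept probe, and 0 of 25 passed after SM30 and after AS30 at 3 h, with medians of 0.01 and -0.07, against 7.49% and 2.52% of all probes passing. At 22 h 2 of 23 passed, both higher, with a median of 0.26, against 3.58% of all probes. The counts of the lists that follow stand against the same shares. Of 20 genes of glycerolipid assembly 19 were kept. Of these 19, 2 passed as higher and 1 as lower after SM30, and 1 passed as higher after AS30 at 3 h. AGPAT4, which acylates lysophosphatidic acid, rose after both particles at 3 h, by 0.96 after SM30 (adjusted p = 0.0150) and by 0.84 after AS30 (adjusted p = 0.0439). GPAT3, which acylates glycerol-3-phosphate, rose by 0.89 after SM30 (adjusted p = 0.00867), and GPAM, the mitochondrial enzyme of the same step, fell by 0.72 (adjusted p = 0.0127). The enzymes that feed phosphatidic acid to LPIN1 thus did not move in 1 direction, and 1 of 19 passed at 22 h, as higher, against 3.58% of all probes.

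Of 28 genes of fatty acid oxidation 27 were kept. PPARGC1A, a coactivator of mitochondrial genes, fell by 0.89 after SM30 (adjusted p = 0.0331), and SLC25A20, the carnitine carrier, fell by 0.47 (adjusted p = 0.0448). They were the 2 of 27 to pass after SM30, a count near the 7.49% of all probes that passed. After AS30 at 3 h 0 of 27 passed, against 2.52% of all probes, and at 22 h 2 of 26, both higher, against 3.58%. All 15 genes of the control of lipogenic transcription were kept. INSIG1, which retains the SREBP complex in the endoplasmic reticulum, rose by 1.43 after SM30 (SE 0.28, adjusted p = 0.0232), and USF1, an E-box binding factor, rose by 0.97 after AS30 at 3 h (SE 0.18, adjusted p = 0.0401). These were 1 of 15 passing after SM30, against 7.49% of all probes, and 1 of 15 after AS30 at 3 h, against 2.52%. At 22 h 1 of the 15 passed, as higher, against 3.58% of all probes.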

How the data were processed

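RNA of A549 cells was hybridised to 18 Agilent arrays in 1 colour, 3 for each of 6 groups, with group and replicate letter taken from the labels. The authors deposited a scanner output for each array from Agilent Feature Extraction 10.5.1.1, whose spot intensities are on a linear scale, and an expression table of linear intensities, normalized by quantile and averaged over replicate spots by the authors. The first was used for all values and the second as an alternative.

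Processed signals of non-control spots were put on the log2 scale and quantile-normalized over the 18 arrays, spots not positive and significant were set to missing, outlier spots (a step the methods do not name) were left out, replicate spots were averaged, and probes with over 33% missing were removed, which left 28665 of 41000. Ratios were taken between a treated array and its same-letter control. The 9 log2 ratios, in 3 classes, were fitted with limma 3.58.1 in R 4.3.3 (6 residual degrees of freedom), and for untreated cells the 18 arrays were fitted as 6 groups, with Benjamini-Hochberg adjustment over all probes tested, a threshold of 0.05 and 95% intervals. The fits were tested on simulated data. The paper calls replicates A to C biological replicates, and the labels do not say whether they came from separate cultures. The p-values measure the spread between these arrays. The precision is limited by 3 arrays per group.

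A gene's value is that of its brightest kept probe, judged over the 18 arrays with all spots kept. All 10 genes are named; of the other lists, genes past the threshold at 3 h are named, at most 4 a list. The 10 genes, the lists and the tests were chosen with earlier results of these data known. Alternatives were another scaling, background correction, filters, probe rule, source table, pairing and slide as a block, and each pair left out; the untreated arrays alone were added after the data were seen. Promoter sequences are RefSeq's on GRCh38.p14. Probe sequences are not used here.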

Additional observations from a re-analysis of the deposited data

Results flagged for a closer look

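ACLY and FADS2 had ratios on opposite sides of 0 after AS30 at the 2 recovery times. For ACLY the ratio was below 0 in all 3 pairs at 3 h, with a mean log2 ratio of -0.12, and above 0 in all 3 pairs at 22 h, with a mean of 0.42, although pair B was at 0.02. For FADS2 the mean was -0.29 at 3 h and 0.72 at 22 h, again with 3 of 3 pairs on each side. The second FADS2 probe was above 0 at both times, at 0.14 and 0.73. The sign of the brightest probe at 3 h held in 21 of 22 alternatives for FADS2 and in 22 of 22 for ACLY. With slide as a fixed block the FADS2 change at 3 h was 0.21, above 0 as at 22 h. Among the differences between the 2 times, 0 of the 10 genes passed the threshold in limma, and they are given as a description, since the 22 h contrast chose ACSS2. Groups of 3 arrays are too small to test for a sample that stands apart.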

How the results depend on the processing

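Over 23 alternatives, none reversed a change that passed the threshold, and 41 of 1503 gene values changed sign without passing it in either setting. LPIN1 after SM30 passed in 19 of 22 alternatives, with a log2 change of 1.06 to 2.06. After AS30 at 22 h the 5 genes became 3 with unflagged spots kept, where 508 probes passed over 41000 tested, 8 with the mean control in place of the same-letter control, a fit that leaves out the controls' own spread, and 0 with slide as a fixed block. In the same order of settings, SM30 at 3 h went from 1 gene to 2 with the mean control and to 0 with slide fixed, and AS30 at 3 h from 0 to 1 with the mean control and to 1 with slide as a random block. Between AS30 at 22 h and 3 h, 0 became 6 with the mean control and 2 with slide random, where the share of all probes passing went from 0.0285% to 21% and 1.13%. Between the untreated sets, 2 became 1 under normexp, where 25.1% of all probes passed in place of 26.8%. Slide as a fixed block could not be fitted between these sets. The same-letter arrays correlated in their deviations from the group means at -0.06 to 0.38, so the letters do not clearly pair them. With the replicate block in a fit of 6 groups, 1 gene passed after SM30, 0 after AS30 at 3 h, 5 at 22 h, and 2 between AS30 at 22 h and 3 h in place of 0, and 2 between the untreated sets. The shares of all probes passing in that fit were, in the same order, 11.2%, 7.33%, 7.41%, 0.951% and 26.8%. Without 1 pair at a time the counts ranged from 0 to 1 after SM30, 0 to 7 after AS30 at 22 h, 0 to 3 between AS30 at 22 h and 3 h, and 0 to 5 between the untreated sets, and stayed at 0 after AS30 at 3 h, between SM30 and AS30, and between untreated cells at 22 h and 3 h. The cause of these moves was not tested. Over all probes, the mean control took the share passing after SM30 from 7.49% to 33%, after AS30 at 3 h from 2.52% to 34.5% and at 22 h from 3.58% to 31.1%. Slide as a random block took it to 13.8% after AS30 at 3 h.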
